A study of Mus musculus with 4 samples.

Results

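The genes described here are 6 very large mouse genes, several of which span chromosomal fragile sites in humans, namely Fhit, Wwox, Lrp1b, Csmd1, Dlg2 and Magi2. They were chosen by name. Every probe that the array's design assigns to one of these names was taken, in genome order along the gene, to look for internal deletions. This gave 72 of the 52385 autosomal probes and 6 of the 20478 autosomal genes measured. All 6 names are current symbols.

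The DNA came from liver cells of mice with the genotype TAK1LPC-KO_RIP3-_-, a label that names TAK1 and RIP3, and 4 such samples made up the only group. TAK1 and RIP3 are kinases that relay inflammatory and cell death signals, and all 4 samples share this genotype. DNA was taken from formalin-fixed, paraffin-embedded sections with a Qiagen kit, 250 ng of it was labelled with Cy5 by an Enzo kit, and each sample competed with a Cy3-labelled pool of DNA from 4 normal livers. The labels give no age, sex or strain, no promoter for the deletion, and no genotype for the normal livers, and nothing on tumour content or on whether the samples were separate animals, so a p-value reflects no more than the spread among the 4 samples, part or all of which may be technical.

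In humans, common fragile sites are stretches that break when DNA replication is slowed, and many lie inside genes that are exceptionally long and replicate late. Breakage there typically removes part of one gene, so deletions inside these genes are frequent in human tumours and leave the neighbouring genes in place. On a comparative genomic hybridisation array, in which sample and reference DNA compete for the same probes, such a deletion appears as consecutive probes with a low ratio bounded by probes with an unchanged one. The value used throughout is the log2 ratio of sample over pool, centred on the median of the autosomal probes of each array. Loss of 1 of the 2 copies in every cell would give a value of -1, and the same loss in only some of the cells would give a value nearer to 0.

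The probes on which the results turn are shown first, because neighbouring probes of 1 gene gave opposite readings and each reading belongs to 1 short sequence. They are numbered along each gene from the lower coordinate, positions refer to the mouse build mm9, as the file headers name it, and each is printed 5′ to 3′ as the array's design lists it. The sources used here do not give the strand, and no base is in capitals because no part of a probe was singled out. The first 3 sequences are consecutive Lrp1b probes that make up the lowest stretch of the 6 genes, and probe 11 is the lowest single probe of Lrp1b. Magi2 probe 8 had the lowest mean of all 72 probes and Dlg2 probe 25 the highest of the densely covered stretch of Dlg2.
Lrp1b probe 4, chr2:41733900-41733958: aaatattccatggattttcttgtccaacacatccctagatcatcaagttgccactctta
Lrp1b probe 5, chr2:41740731-41740790: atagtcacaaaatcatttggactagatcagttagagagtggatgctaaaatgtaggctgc
Lrp1b probe 6, chr2:41750325-41750384: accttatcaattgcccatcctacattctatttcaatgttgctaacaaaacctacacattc
Lrp1b probe 11, chr2:41785035-41785094: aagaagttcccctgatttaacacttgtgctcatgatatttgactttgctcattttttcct
Magi2 probe 8, chr5:20193449-20193508: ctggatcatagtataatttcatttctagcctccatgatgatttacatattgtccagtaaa
Dlg2 probe 25, chr7:99108296-99108355: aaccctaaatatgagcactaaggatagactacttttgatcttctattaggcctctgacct

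Of the spots on an array, 84.3% to 89.9% were well above background for the sample and 94.4% to 97.7% for the pool. The scanner's noise measure, the spread of differences between neighbouring log ratios, was 0.38 to 0.42, which the scanner software marked as out of range for each array. Replicates 1 and 2 shared a slide, as did replicates 3 and 4. No dyes were swapped, so dye effects of single probes remain in the ratios, and the pool is the only control, so the spread between normal livers is not measured. Genes of liver metabolism also stood above the pool on these DNA arrays. Of 14 measured hepatocyte genes 9 were higher and 0 lower by the threshold used for the large genes (adjusted p under 0.05 in limma and a mean at least 0.25 from 0), where 16.1% of all autosomal genes were called higher and 19.2% lower. Fabp1, a fatty acid binding protein, stood at 5.36 ± 0.51 (SD, n = 4), Pck1 at 2.39, Cyp2e1 at 2.38 and Tat at 2.15. In the authors' deposited table Fabp1 stood at 0.92 and Pck1 at 1.43, while Cyp2e1 at 2.39 and Tat at 2.13 were close to these values. Whether this has a part in the ratios of the large genes was not tested.

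None of the 6 genes as a whole lay below the pool by the threshold used, and Wwox lay above it. Probe ratios were averaged within a gene, and the gene was called at a Benjamini-Hochberg adjusted p under 0.05 in limma, fitted over all autosomal genes, with a mean at least 0.25 from 0. By this rule 1 of the 6 genes was called, higher, against a background of 35.4% of all autosomal genes, of which 16.1% were called higher and 19.2% lower. Among genes with at least 3 probes, 24.8% were called. At an unadjusted p under 0.05, 3 of the 6 genes passed, all above the pool, against 49.6% of all autosomal genes. The median of the 6 gene ratios was 0.14, and that of all autosomal genes was -0.014.

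Fhit and Wwox encode enzymes that are lost through fragile-site deletions in human tumours. Fhit hydrolyses dinucleoside polyphosphates, and its 6 probes lie on chromosome 14 from 10520692 to 11808416. Its gene ratio was -0.11, -0.04, -0.16 and 0.01 in replicates 1 to 4, with a mean of -0.07 ± 0.08 (SD, n = 4; adjusted p = 0.399). The 4 arrays lay on both sides of 0, and Fhit was the lowest of the 6 genes, at a value that 42.2% of autosomal genes did not exceed. With only the probes well above background in both channels on all arrays, Fhit stood at 0.05 and Lrp1b lower, at 0.01.

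Wwox, an oxidoreductase with WW domains that bind partner proteins, has 3 probes on chromosome 8 from 117335893 to 117813934. Its gene ratio was 0.44, 0.53, 0.35 and 0.29, with a mean of 0.40 ± 0.11 (SD, n = 4; adjusted p = 0.00619). All 4 arrays were above the pool. The median of all chromosome 8 probes also lay above 0, at 0.16, and with each array centred on the gene's own chromosome Wwox stood at 0.24 (adjusted p = 0.0388), short of the size limit. With the normexp background correction, an alternative that starts from each spot's mean and local background signal, its mean was 0.21 and it was not called.

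Lrp1b and Csmd1 encode giant membrane proteins. Lrp1b is an endocytic receptor of the low-density lipoprotein receptor family, with 21 probes on chromosome 2 from 40729087 to 42175432. Its gene ratio was 0.09, 0.02, 0.16 and -0.05, with a mean of 0.05 ± 0.09 (SD, n = 4; adjusted p = 0.549), and the arrays lay on both sides of 0. Csmd1, a membrane protein with CUB and sushi domains that inhibits complement, has 7 probes on chromosome 8 from 15892544 to 17518652. Its gene ratio was 0.35, -0.06, 0.41 and 0.48, with a mean of 0.30 ± 0.24 (SD, n = 4; adjusted p = 0.0560). Replicate 2 stood apart from the other 3 arrays, and without it Csmd1 was called higher at 0.42 (adjusted p = 0.0184). With only the probes well above background in both channels on all arrays its mean was 0.05 (adjusted p = 0.579), and centred on its own chromosome it was 0.14 (adjusted p = 0.313).

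Dlg2 and Magi2 encode scaffolds of the membrane-associated guanylate kinase family. Dlg2, also known as PSD-93, anchors receptors at synapses, and its 27 probes lie on chromosome 7 from 98370585 to 99422099. Its gene ratio was 0.08, 0.19, 0.09 and 0.13, with a mean of 0.12 ± 0.05 (SD, n = 4; adjusted p = 0.155). Magi2, which also assembles proteins at cell junctions, has 8 probes on chromosome 5 from 19377143 to 20193508, and its gene ratio was 0.04, 0.20, 0.29 and 0.13, with a mean of 0.17 ± 0.11 (SD, n = 4; adjusted p = 0.0991). Both genes were above the pool on all 4 arrays by amounts that did not pass the test.

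In order of the mean the genes ran from Wwox through Csmd1, Magi2, Dlg2 and Lrp1b to Fhit. The ranges over the 4 arrays overlapped between every pair of neighbours in this order. Between the slides, none of the 6 genes differed at an adjusted p under 0.05, and 0% of all autosomal genes did. At an unadjusted p under 0.05 the count was 0 of 6, against 10.8% of all autosomal genes. Csmd1 differed most, by 0.30 between a mean of 0.15 on the slide of replicates 1 and 2 and 0.45 on the slide of replicates 3 and 4 (adjusted p = 0.567, limma). With slide as a random block the same number of genes, 1, was called, and with loess within each array 2 were, Csmd1 being called at 0.33.

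**Figure D1:**
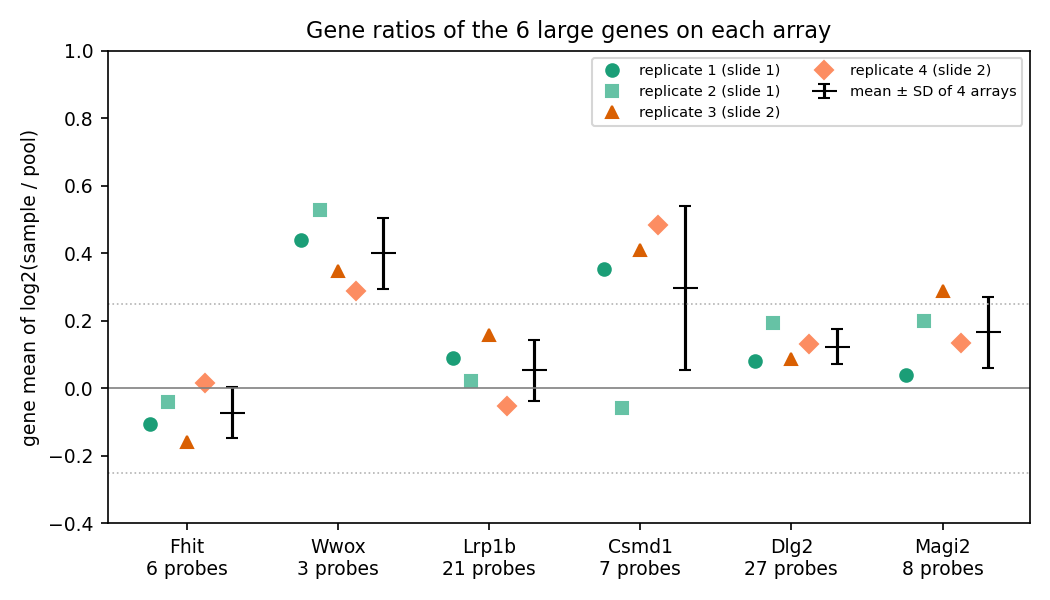
Gene ratio, the mean log2 ratio of sample over pool over a gene's probes, for each of the 6 genes on each of the 4 arrays, with the mean and SD beside the points, a solid line at 0 and dotted lines at the size limit of 0.25 on either side. Wwox lies above 0 by more than the size limit on all 4 arrays, with a mean of 0.40, and the points of neighbouring genes in the order of means overlap.

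A deletion confined to a gene would set it apart from its surroundings, so each gene was also read against its flanks, as the gene mean minus the median of the other probes within 1 Mb on either side. Fhit and Lrp1b had fewer than 10 flank probes and could not be tested at this distance. Of the other 4 genes, 0 were called in limma, against a background of 22.3% of 4654 genes, 2 passed the adjusted p without reaching the size limit, and 3 had an unadjusted p under 0.05. The 22.3% holds for the full call rule. The shares of all genes passing either p alone were not computed, so the counts of 2 and 3 have no background. Wwox exceeded its flanks by 0.23 ± 0.09 (SD, n = 4; adjusted p = 0.0195) and Magi2 by 0.23 ± 0.09 (SD, n = 4; adjusted p = 0.0181), both under the size limit. Csmd1 differed by 0.19 ± 0.20 (SD, n = 4; adjusted p = 0.0906). Dlg2 differed from its flanks by -0.01 ± 0.13 (SD, n = 4; adjusted p = 0.925), and its arrays lay on both sides of 0. With 1 array left out, 0 to 1 of these 4 genes were called at a time, against 20.2% to 22.1% of all genes tested. The calls, all higher, were Wwox at 0.26 without replicate 4, Magi2 at 0.27 without replicate 1 and Csmd1 at 0.28 without replicate 2.

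With flanks of 3 Mb all 6 genes could be read, and Wwox at 0.28 was called higher. Fhit was the only gene below these wider flanks on all 4 arrays, at -0.21, -0.12, -0.29 and -0.07, a mean of -0.17 ± 0.10 (SD, n = 4; adjusted p = 0.0473), which is smaller than the size limit. The Fhit values include its probe 4, at -0.77, whose sample signal was not well above background on any array. With only the probes well above background in both channels on all arrays, Fhit stood at 0.05 against the pool. Its difference from the wider flanks was not computed for those probes. Lrp1b differed from the wider flanks by 0.06 ± 0.07 (SD, n = 4; adjusted p = 0.451). No gene was thus called below its surroundings at either distance.

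Within the genes, single probes ranged more widely than gene means. Of the 72 probes 17 were called higher, 6 lower and 49 neither, where 36.9% of all autosomal probes were called in either direction. These are 23.6% and 8.33% of the 72, against a background of 18.2% of all autosomal probes called higher and 18.8% called lower. Without replicate 1, 10 probes were called higher, with no share of all autosomal probes in that setting beside it. Lrp1b had 4 higher and 3 lower probes, Dlg2 6 and 1, Magi2 2 and 1, Fhit 1 and 1, Csmd1 3 and 0, and Wwox 1 and 0. Probe means ran from -0.84 to 0.95 with a median of 0.14, against -0.0040 for all autosomal probes. The SD between the 72 probe means was 0.37, and the median SD of a probe between arrays was 0.19. Over all autosomal probes the corresponding values were 0.40 and 0.20, so the scatter along these genes was close to that of the genome. Of the 72 probes 37, or 51.4%, had 1 sign on all 4 arrays, as did 53.2% of all autosomal probes.

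Dim probes made up part of the extremes. On at least 1 array 8 of the 72 probes were not well above background in 1 or both channels, and such probes are called dim, while a probe well above background in both channels on an array is called bright there. The 64 others ran from -0.84 to 0.95, with 15 higher and 5 lower among them in the fit over all autosomal probes. In a fit over only the probes bright on all arrays, 19 of the 64 were called higher and 8 lower. The shares of all such autosomal probes called are not given here, so these counts have no background. No probe mean reached -1, the level of 1 lost copy in all cells, while 0.916% of all autosomal probe means did. Of the 288 single-array values 6 lay at or below -1, or 2.08% against 2.13% over the genome, and they fell on 5 different probes. Fhit probe 4 in replicates 2 and 3, Dlg2 probe 1 in replicate 1 and Lrp1b probe 2 in replicate 4 gave 4 of these values, and all 3 probes were dim. The other 2 were Lrp1b probe 11 at -1.17 and Magi2 probe 8 at -1.02, both in replicate 1. At the other end, 9 of the 288 values reached 1 or more, or 3.12% against 1.39% over the genome. Of these 9 values 6 came from probes dim on at least 1 array, namely Lrp1b probe 2 and Csmd1 probes 2 and 6. The bright probes gave 3 of 256 values, or 1.17%, against 0.893% over all autosomal probes that were bright on all arrays.

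Lrp1b held the lowest run of adjacent probes. Probe 4 read -0.72, -0.45, -0.71 and -0.53, a mean of -0.60 ± 0.13 (SD, n = 4; adjusted p = 0.00382). Probe 5, 6.77 kb further on, read -0.21, -0.36, -0.20 and -0.13, and its mean of -0.23 was not called. Probe 6, a further 9.53 kb on, read -0.47, -0.68, -0.34 and -0.95, a mean of -0.61 ± 0.27 (SD, n = 4; adjusted p = 0.00848). All 3 probes were below the pool on every array. Probe 4 is printed on 5 spots of each array, and all 20 spots were below 0, with an SD between spots of 0.11 to 0.50 depending on the array.

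The run did not continue at the same level. Probe 7 had a mean of -0.17 with replicate 2 above 0, and probe 8 had a mean of 0.16 with all 4 arrays above 0. Further along, probe 9 had a mean of -0.32, probe 10 of 0.27, probe 11 of -0.65 and probe 12 of 0.45. Probe 11 read -1.17, -0.58, -0.46 and -0.38 (adjusted p = 0.0129), and probe 12, 14.3 kb away, read 0.25, 0.60, 0.43 and 0.51 (adjusted p = 0.0105). Both were bright on every array, and the 2 sets of values did not overlap. From probe 4 to probe 12 the means thus changed sign 5 times within 65.6 kb. Beyond probe 12 no Lrp1b probe was called lower, and probes 14 and 15 were called higher at 0.38 and 0.34.

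The arrays disagreed most at a probe before this stretch. Probe 2 of Lrp1b, with a GC content of 20%, the lowest of the 72, read 0.34, 0.32, 3.05 and -1.05. It was dim in the pool channel on all 4 arrays and in the sample channel on 3, and its mean of 0.67 ± 1.72 (SD, n = 4) was not called. Without replicate 3 its mean was -0.13.

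**Figure D2:**
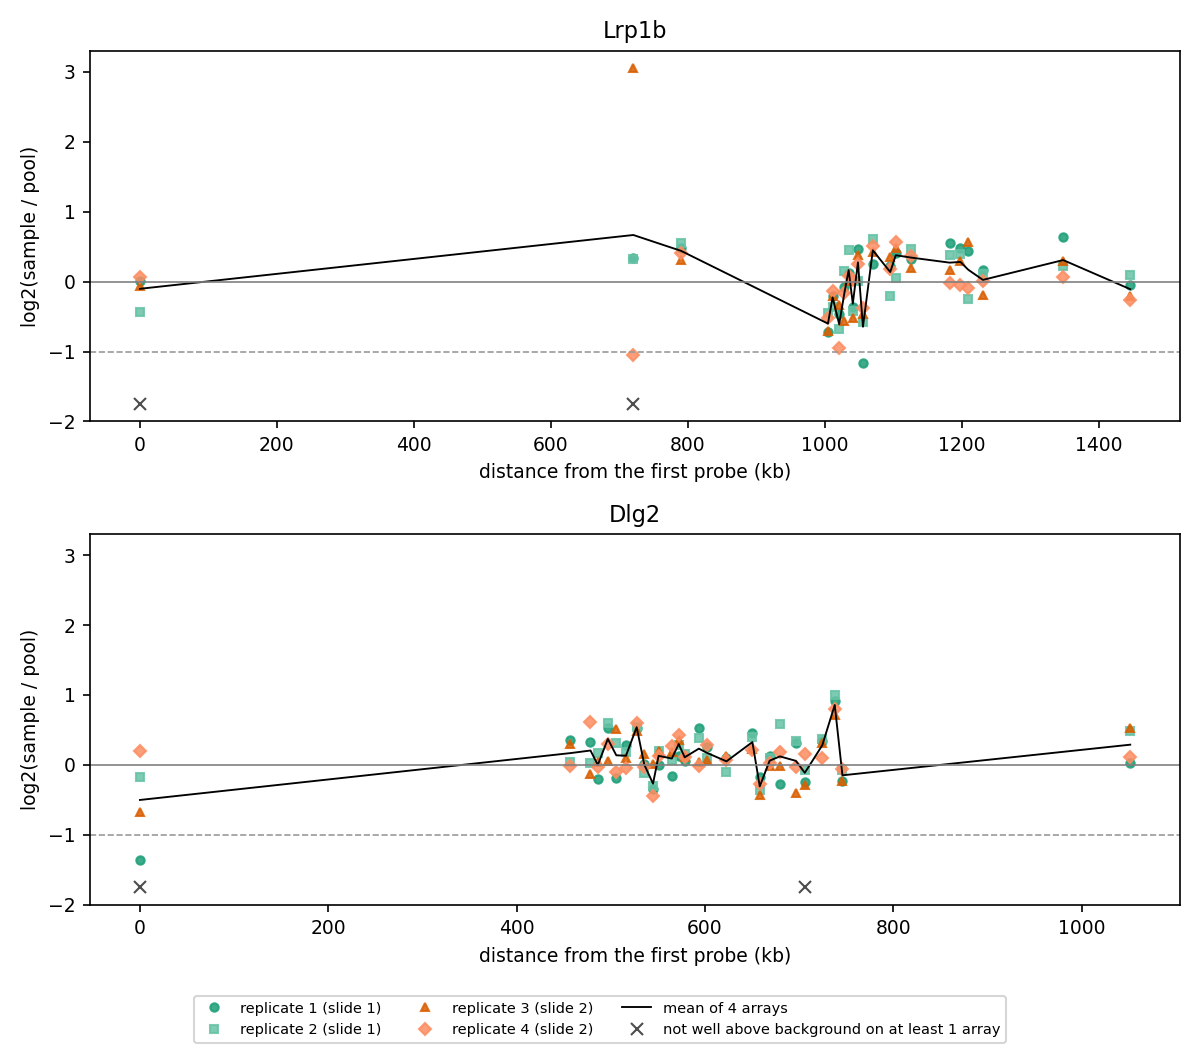
Log2 ratio of sample over pool at each probe of Lrp1b (21 probes) and Dlg2 (27 probes) on the 4 arrays, against the distance in kb from the gene's first probe, with a line through the means, a dashed line at -1 and crosses under probes not well above background on at least 1 array. In Lrp1b the means alternate between -0.65 and 0.45 within the dense stretch, and in Dlg2 probe 25 stands at 0.86 between neighbours at 0.28 and -0.15.

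Dlg2 was the most densely covered gene, with 23 of its 26 gaps at 25 kb or less. Its 27 probe means ran from -0.50 to 0.86 around a median of 0.13. The lowest, probe 1, read -1.36, -0.17, -0.67 and 0.20, was dim in the sample channel on 3 arrays and was not called. The only Dlg2 probe called lower was probe 19, at -0.17, -0.36, -0.43 and -0.27, a mean of -0.31 (adjusted p = 0.0298). Its neighbours on either side, probes 18 and 20, had means of 0.33 and 0.06. Probe 25 read 0.92, 1.00, 0.71 and 0.80, a mean of 0.86 ± 0.13 (SD, n = 4; adjusted p = 0.00157). Probe 24, 13.2 kb before it, had a mean of 0.28, and probe 26, 8.12 kb after it, had a mean of -0.15 with all 4 arrays below 0. Probe 25 thus stood above its neighbours on both sides.

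In Magi2 the last probe was the low one. Magi2 probe 8 read -1.02, -0.60, -0.81 and -0.94, a mean of -0.84 ± 0.18 (SD, n = 4; adjusted p = 0.00208). Probe 7, 19.4 kb before it, read 0.33, 0.25, 0.08 and 0.07, and no value of the 2 probes overlapped. Magi2 probe 3 was the highest of the gene at 0.46, 0.53, 1.52 and 1.29, a mean of 0.95 ± 0.53 (SD, n = 4; adjusted p = 0.00981). Its values were higher on the slide of replicates 3 and 4 than on the slide of replicates 1 and 2, and probe 4, 78.2 kb on, had a mean of 0.48 and was also called higher.

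Fhit, Csmd1 and Wwox had few probes each. Fhit probe 4 read -0.32, -1.14, -1.25 and -0.37, a mean of -0.77 ± 0.50 (SD, n = 4; adjusted p = 0.0163). It was called lower, but its sample signal failed the background test on all 4 arrays and its pool signal on 1, the bound on its fold against the pool was under 1 so that no fold is given, the call was lost without replicate 2 (-0.65) or replicate 3 (-0.61), and with the normexp background correction its mean was 0.10. Fhit probe 5, 142 kb on, was below the pool on all 4 arrays at -0.32 without passing the test (adjusted p = 0.0591), and Fhit probe 6 read 0.48, 0.61, 0.68 and 0.57, a mean of 0.59 (adjusted p = 0.00334). The 3 probes before probe 4 had means between 0.0053 and 0.03. The lowest Fhit values therefore came from 1 dim probe and from 1 probe that did not pass the test.

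Csmd1 had no probe called lower. Its lowest, probe 3, read -0.43, -0.89, 0.03 and 0.0035, so that replicates 1 and 2 lay below the pool and replicates 3 and 4 at its level. Csmd1 probes 2 and 6 had means of 0.93 and 0.80 and were called higher, and replicate 2, in which each of them read lowest at 0.15 and -0.0074, was the array below the others in the gene ratio. Each of these 2 probes was dim in the sample channel on 1 array and in the pool channel on 1 array, not necessarily the same one. All 3 Wwox probes were above the pool on every array, with probe 2 at 0.75, 0.93, 0.66 and 0.56, a mean of 0.72 ± 0.15 (SD, n = 4; adjusted p = 0.00260). Wwox probe 3, printed on 5 spots, had a mean of 0.20, and 2 of its 20 spots were below 0.

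**Figure D3:**
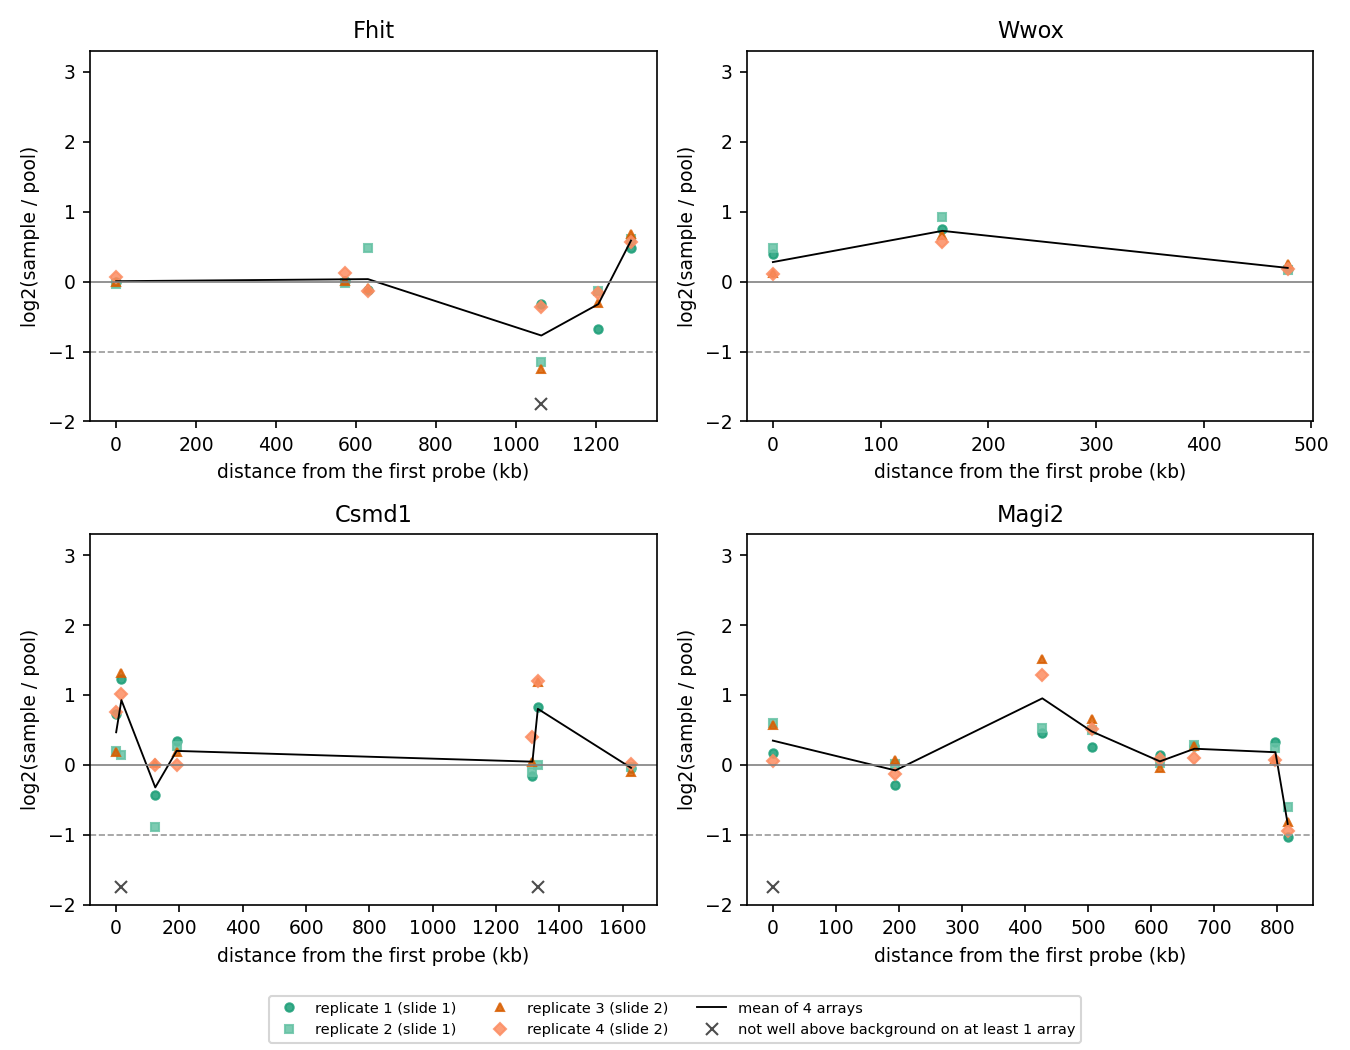
Log2 ratio of sample over pool at each probe of Fhit, Wwox, Csmd1 and Magi2 on the 4 arrays, against the distance in kb from the gene's first probe, with a line through the means, a dashed line at -1 and crosses under probes not well above background on at least 1 array. The lowest mean is -0.84 at the last Magi2 probe, and the highest is 0.95 at Magi2 probe 3.

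Neighbouring probes were then compared over all 6 genes. Of the 66 pairs of adjacent probes 27 had means of opposite sign, and among the 19 pairs within 10 kb this was true of 10. The median absolute difference between adjacent probes was 0.38, against 0.32 over all autosomal probes. No adjacent pair was called lower at both probes, 4 pairs were called higher at both, and 3 pairs were called in opposite directions. The matching shares over all autosomal pairs were not computed, so these counts of pairs are not read as particular to the 6 genes. The largest difference, 1.25, lay between Csmd1 probes 2 and 3, the first of them dim on at least 1 array. Over the 72 probes, the values of different arrays correlated at a Pearson's r of 0.36 to 0.62, against 0.61 to 0.70 over all autosomal probes. The lowest, 0.36, was between replicates 3 and 4, on which the dim Lrp1b probe 2 read 3.05 and -1.05. Spearman's rho, which uses ranks, was 0.55 for that pair and 0.48 to 0.72 over all pairs of arrays. It was not computed over all autosomal probes. The arrays share the pool DNA and the probe sequences. The probes' mean ratio had a Pearson's r of -0.14 with their GC content and of -0.12 with the pool signal, and these points share the same arrays.

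Means of consecutive probes were then used, because a deletion should lower several neighbours together. In windows of 5 consecutive probes named for 1 gene, 49 windows could be formed in 5 of the genes, Wwox having too few probes. Of these windows 1 was called lower and 8 higher, or 2.04% and 16.3%, against backgrounds of 12.8% and 10.1% of all autosomal windows. Against windows that lie within any 1 gene the backgrounds were 6.97% lower and 14.5% higher. The lower calls in the 6 genes were thus no more frequent than the background of either kind.

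The single low window lies in Lrp1b at chr2:41733900-41764182, a stretch of 30.3 kb that holds probes 4 to 8. Its mean was -0.27, -0.18, -0.36 and -0.34 on the 4 arrays, or -0.29 ± 0.08 (SD, n = 4; adjusted p = 0.00127). All 4 arrays were below the pool, and 9.56% of all autosomal windows had a mean at or below this one. Chromosome 2 as a whole had a median of -0.07, and centred on its own chromosome the window stood at -0.21, short of the size limit. With the normexp background correction it stood at -0.20. Without replicate 2, the array closest to 0, 3 windows of the 6 genes were called lower. The share of all autosomal windows called lower without that array is not given here, so this count has no background.

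The 8 windows called higher lay in Lrp1b (3), Magi2 (3) and Csmd1 (2). The 3 in Lrp1b overlap each other from 41799437 to 41938842, beginning at probe 12, and have means of 0.28 to 0.31. Probes 9 to 11 lie between them and the low window. The highest Magi2 window had a mean of 0.38 ± 0.09 (SD, n = 4; adjusted p = 0.000301). Both Csmd1 windows span the largest gap of that gene. With the normexp background correction 0 windows were called higher, and with a GC correction 5 were.

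Shorter windows of 3 probes gave 3 lower and 16 higher among 60, or 5% and 26.7%, against backgrounds of 16.2% and 13.7%. The lowest was again in Lrp1b, over probes 4 to 6 from 41733900 to 41750384, at -0.46, -0.50, -0.42 and -0.54, a mean of -0.48 ± 0.05 (SD, n = 4; adjusted p = 0.000474). Of all autosomal windows of this length, 3.25% had a mean at or below it. The Fhit window called lower, over probes 3 to 5, read -0.37, -0.27, -0.55 and -0.23 and includes the dim probe 4. In windows of 10 probes, which could be formed in Lrp1b and Dlg2 only, 0 of 30 were called lower and 0 higher, against backgrounds of 8.33% and 6.37%. At an unadjusted p under 0.05 in limma, 2 of these 30 windows lay below the pool and 21 above it. Neighbouring windows of a gene share most of their probes, so the windows are not separate readings. The share of all autosomal windows passing this level was not computed, so these 2 counts have no background beside them.

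**Figure D4:**
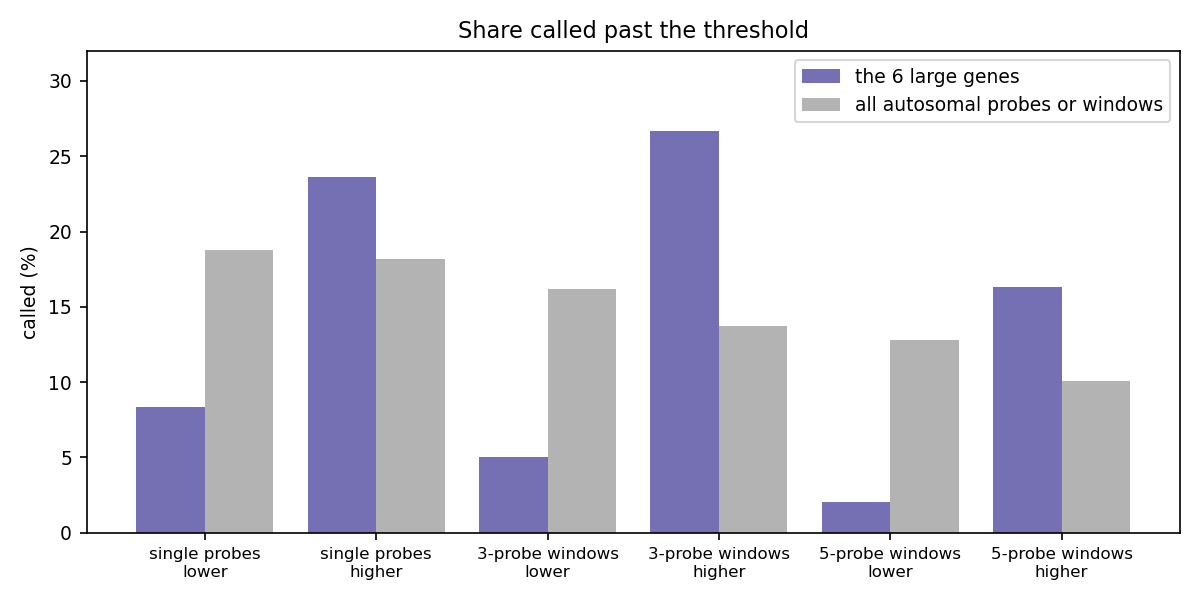
Percentage of single probes, 3-probe windows and 5-probe windows called lower or higher than the pool in the 6 genes, beside the percentage over all autosomal probes or windows. In the 6 genes 8.33% of probes and 2.04% of 5-probe windows were called lower, against 18.8% and 12.8% over the autosomes. Of the 5-probe windows within any 1 gene, which are not drawn, 6.97% were called lower.

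Since a deletion could be present in 1 sample only, each array was also read alone, without a test. In Lrp1b the window of probes 4 to 8 was the lowest of the gene in replicates 1 to 3, at -0.27, -0.18 and -0.36, and 14.7%, 24.4% and 6.26% of all autosomal windows of the same array lay at or below it. In replicate 4 the lowest was another window, over probes 2 to 6, at -0.45 (2.97%), which includes the dim probe 2 at -1.05 on that array, while the window of probes 4 to 8 stood at -0.34. In Dlg2 the lowest windows, not the same one on every array, stood at -0.07, 0.03, -0.23 and -0.0037. In Fhit they stood at -0.22, -0.17, -0.33 and -0.10. The lowest windows of Csmd1 and Magi2 lay between -0.15 and 0.33 on any array. No 5-probe window of the 6 genes lay at or below -0.25 on all 4 arrays, where 5.02% of all autosomal windows of that length did. Of the 60 windows of 3 probes 2 did, or 3.33% against 6.50%, and both lie in Lrp1b, over probes 4 to 6 and 5 to 7. When each array was divided into segments of constant level, 21 to 24 segments covered the 19 autosomes, each of the 6 genes lay inside a single segment on every array, and 0 segment edges fell inside any of them. With a lower penalty there were 27 to 34 segments, and again 0 edges inside the 6 genes. Both penalties were large beside the noise of the arrays. At either one, a loss of 1 copy over 5 or 10 probes was too small to make an edge by itself. The 0 edges therefore cannot decide whether a deletion of that length is present.

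What the array can show differs along the genes, because the probes are unevenly spaced. Of the 66 gaps between adjacent probes of a gene, 39 were 25 kb or less and 17 exceeded 100 kb. The short gaps lie mainly in Lrp1b, with 13, and Dlg2, with 23. In Csmd1 a gap of 1.12 Mb from 16083571 to 17207317 takes up 69.1% of the distance between the first and the last probe. The largest gap of Wwox was 0.321 Mb or 67.0% of its span, that of Lrp1b 0.721 Mb or 49.8%, and that of Fhit 0.573 Mb or 44.5%. A deletion inside these gaps would not be seen. No mm9 exon annotation was used here, so no probe is assigned to an exon.

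Other genes of this kind were read against the pool in the same way. Of 45 other large or fragile-site genes 42 were measured, of which 5 were called higher and 2 lower, or 16.7% in all against 35.4% of all autosomal genes and 24.8% of those with at least 3 probes, with a median gene ratio of 0.03 against -0.014 for all autosomal genes. Those farthest from 0 were Foxp2, a transcription factor, at 0.58, Ctnnd2, a catenin of neuronal junctions, at -0.43, Gpc6, a glypican, at 0.41, and Pard3, a cell polarity scaffold, at 0.41. With the normexp background correction Ctnnd2 stood at -0.20 and was not called. Against flanks of 1 Mb, Foxp2 stood at 0.37 and Gpc6 at 0.27, both called higher, and Ctnnd2 at -0.38, called lower. Pard3 stood at 0.10 against its flanks and was not called. The flank calls of the other listed genes are not given here. Their 259 windows of 5 probes were called lower in 10 cases, or 3.86%, and higher in 51, or 19.7%. As in the 6 genes, the share called lower was under the background of 12.8% and the share called higher over that of 10.1%, with no test of either. The closer background is that of windows within any 1 gene, at 6.97% lower and 14.5% higher. Against it the differences had the same direction and were smaller.

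Of 12 paralogs and other genes listed with them 11 were measured, with 3 called higher and 1 lower and a median of -0.04. This is 36.4% called, close to the background of 35.4%. Park7, a protein that protects cells from oxidative stress, stood at 0.42 ± 0.15 (SD, n = 4), and at 0.04 with its dim probe left out. Magi3, a paralog of Magi2, stood at 0.38, while Lrp1, a paralog of Lrp1b, stood at -0.37 and lost its call without replicate 1 (-0.31), 3 (-0.35) or 4 (-0.34). Pink1, a mitochondrial kinase with 1 probe, stood at 0.29 (adjusted p = 0.0410) and lost its call without replicate 1 (0.27), 2 (0.28) or 3 (0.23) and with the normexp background correction (0.12).

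Among the 182 autosomal genes with at least 10 probes, the gene nearest to each of the 6 by the Euclidean distance of the 4 array values was Phlpp1 for Fhit (0.08), Spock3 for Wwox (0.19), Pdgfc for Lrp1b (0.10), Gcap14 for Csmd1 (0.32), Dock9 for Dlg2 (0.04) and Prkcq for Magi2 (0.13). Spock3 lies on chromosome 8, as Wwox does, and none of the other nearest genes shares a chromosome with its partner.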

How the data were processed

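Copy number was measured with 4 arrays of 62976 spots, 3924 of them controls. The deposited intensity values are processed Cy5 and Cy3 signals of Agilent Feature Extraction 10.10.1.1, background-subtracted, detrended and dye-normalised per the file headers. The deposited log10 ratio, sample over pool per the file headers, was used only as a check. The authors' deposited log2 table correlated with the same array at 0.91 to 0.92 and with others at no more than 0.67, with slopes of 0.99 to 1.08 and column medians of -0.04, 0.03, 0.05 and 0.005, and its normalisation is unknown.

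Here log2 of Cy5 over Cy3 was taken, controls and outlier spots (93 to 108 per array) were left out, spots of a probe were averaged and arrays were centred on the autosomal median, without loess or quantile steps. Ratios were tested against 0 with limma 3.58.1 in R 4.3.3 and Benjamini-Hochberg adjustment over all autosomal genes, probes or windows. The gene, flank, probe and window calls were tested on simulated data with independent noise at each probe. That noise was centred on 0, without lasting offsets of single probes. Changes were added to single probes or to finished gene, flank or window values, so a deletion of consecutive probes was not simulated. The segments and the comparison between slides were not tested in this way. Segments used penalised least squares with at least 5 probes and a penalty multiplier of 10, with 5 as the alternative. An exact permutation test over the signs of 4 values has a smallest two-sided p of 0.125, and the number of arrays limits the precision.

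Some genes are not reported here. The members and lists were chosen with earlier results of these data known. Named were all 6 genes, the lowest and highest probe and lowest window of each, up to 4 called genes per list by absolute mean, and the nearest gene. Other probes named were picked after their values were seen. Alternatives were normexp (offset 50), loess, bright probes only, the deposited table, slide as a random block, a size limit of 0.5, each replicate left out, other centrings, GC correction, the median of a gene's probes, flanks of 3 Mb and other window lengths.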

Additional observations from a re-analysis of the deposited data

Results flagged for a closer look

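In 2 of 82 tested sets of 4 array values, 1 array lay far from the other 3 relative to the range of the set. Chance gives about 1 in 20 such sets. At Fhit probe 3, replicate 2 read 0.48 (0.4818), while the other arrays read -0.14 to -0.08, and this is the probe before the dim Fhit probe 4. At Magi2 probe 6, replicate 4 read 0.10 (0.1036), below the other arrays at 0.27 to 0.28. Neither probe was called in limma, and the gap concerned a different array each time.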

How the results depend on the processing

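The number of arrays and the share of dim probes limit these values. The count of genes called against the pool was 1, where 35.4% of all autosomal genes were called. It was 0 with normexp (29.5% of all genes), with centring on the own chromosome (32.8%) and at a size limit of 0.5 (11.6%). It was 2 with loess (36%), and 1 to 2 with a replicate left out (26.7% to 29.2%). Of the genes read against their flanks 0 were called (22.3% of all genes tested), 1 with 3-Mb flanks (22%), and 0 to 1 with a replicate left out (20.2% to 22.1%). Probes called higher numbered 17, 7 at 0.5 and 10 to 13 with a replicate left out, of which 10 to 12 were among the 17. Probes called lower numbered 6, and 4 to 6 with a replicate left out. With bright probes only both counts rose, to 19 higher and 8 lower of 64 probes. Windows called lower numbered 1, 0 with normexp, at 0.5 and with 10 probes, 2 with bright probes only, 3 with the deposited table, centring on the mode and windows of 3 probes, and 1 to 3 with a replicate left out. Windows called higher numbered 8, 0 with normexp, at 0.5 and with 10 probes, 5 with the GC correction, 16 with 3 probes, and 7 to 10 with a replicate left out. The shares of all autosomal probes and windows called in each alternative are not set beside these counts. Changes in the counts of probes and windows are therefore not read as particular to the 6 genes. Segment edges inside the genes and differences between slides stayed at 0 in every alternative run. Values that changed sign were Fhit at 0.039 (normexp) and 0.049 (bright probes only), Csmd1 against its flanks at -0.042 (bright probes only), Dlg2 against its flanks, -0.070 to 0.035 with a replicate left out and above 0 without replicate 1 or 3, Fhit probe 4 at 0.10 and Dlg2 probe 1 at 0.069 (normexp), and Lrp1b probe 2, -0.13 to 1.24 with a replicate left out and below 0 without replicate 3. The causes were not tested. Of the other values of single genes, probes and windows, 416 kept direction and call under an alternative, 30 lost the call and 7 gained it. No paired analysis was possible because the samples form 1 group.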
